A study of Mus musculus with 6 samples.

Results

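Immunoglobulin constant region genes encode the part of an antibody chain that sets its class, and their RNA was measured in naive B cells of mouse spleen with and without TET2. The group was chosen by gene name: 10 constant region genes, of which 8 had a row among the 41053 gene names of the deposited table and 7 passed the filter on low counts and were tested. These 8 are the heavy chain genes Ighm, Ighg1, Ighg2b, Ighg2c, Ighg3, Igha and Ighe and the kappa light chain gene Igkc; Ighd and Iglc1 were not analysed here. The knockout group held 3 libraries of naive splenic B cells labelled TET2 Knock-Out and the wild-type group 3 libraries labelled TET2 Wild-Type, all from C57BL/6 mice without treatment. The libraries are numbered 2, 3 and 4 in each genotype. The labels give neither the age or sex of the mice, nor the deleted part of Tet2, nor whether the deletion was in all cells, nor how the naive cells were purified. Nor do they tie a library to an individual animal, so the spread behind each p-value is that of these libraries and may be technical.

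A B cell that leaves the bone marrow carries a rearranged variable region joined to the first constant genes of the heavy chain locus, and a naive cell makes IgM and IgD from that transcript by alternative splicing and polyadenylation. After activation, class switch recombination replaces the Ighm constant region by that of an IgG, IgA or IgE gene lying further downstream, so that the antibody keeps its target and changes its effector function. Each constant gene can also be transcribed without switching, from its own promoter, as a germline transcript that holds the same constant exons. Heavy chains pair with a kappa or lambda light chain, and most mouse B cells use kappa. TET2 oxidizes 5-methylcytosine in DNA, and how the constant region genes differed between the genotypes is what the comparison addresses.

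The IgG genes are close copies of each other, so how well reads can be assigned to them depends on where their sequences differ. The hinge, the flexible stretch between the antigen-binding arms and the tail of an IgG, is encoded by a short exon of its own and is the part in which the IgG genes differ most. The hinge exons are shown because all 4 lie among the exons counted for these genes. They were read from GENCODE M21 transcripts of GRCm38, each is on the minus strand, and capitals mark the in-frame cysteine codons, which encode the residues that can join the heavy chains by disulfide bonds.
Ighg3 hinge, chr12:113360529-113360576: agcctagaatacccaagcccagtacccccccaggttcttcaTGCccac
Ighg1 hinge, chr12:113329844-113329882: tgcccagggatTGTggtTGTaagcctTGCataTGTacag
Ighg2b hinge, chr12:113307261-113307326: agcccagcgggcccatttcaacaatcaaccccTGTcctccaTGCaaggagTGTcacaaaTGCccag
Ighg2c hinge, chr12:113288263-113288325: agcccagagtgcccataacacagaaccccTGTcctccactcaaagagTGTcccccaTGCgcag
The Ighg3 hinge has 1 cysteine codon, that of Ighg2c has 3, and those of Ighg1 and Ighg2b have 4 each. Identity between these exons ranged from 39.6% of aligned positions for Ighg1 and Ighg3 to 77.3% for Ighg2b and Ighg2c. Over the whole coding sequences of the shorter reference transcripts, Ighg2b and Ighg2c were 85.6% identical and the other pairs of IgG genes 74.1% to 76.2%. Of all 50-base windows within single exons of the reference transcripts of the 2 genes, 70 occurred in both. They were 2.9% of the windows of Ighg2b and 6.8% of those of Ighg2c. The windows include exons that were not counted for these genes, so the shares within the counted exons can differ. Values of these genes are therefore uncertain to the extent that single reads fell into shared stretches.

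The lambda constant genes on chromosome 16 are copies as well, and the table had a row for Iglc2, which is no member of the group and is given beside Igkc. A stretch of 60 coding bases near the start of its constant exon is shown with the matching stretches of Iglc1 and Iglc3 (GENCODE M21 transcripts, GRCm38, minus strand), and capitals mark the bases that differ from Iglc2.
Iglc2, chr16:19198791-19198850: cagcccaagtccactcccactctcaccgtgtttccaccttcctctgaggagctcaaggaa
Iglc3, chr16:19065620-19065679: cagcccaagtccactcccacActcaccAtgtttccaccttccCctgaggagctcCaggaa
Iglc1, chr16:19062010-19062069: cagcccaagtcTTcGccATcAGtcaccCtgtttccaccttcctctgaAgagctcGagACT
Iglc3 differs from Iglc2 at 4 of these 60 bases and Iglc1 at 13. Over the coding sequence Iglc2 and Iglc3 were 96.2% identical and Iglc1 and Iglc2 73.4%, so reads from stretches that Iglc2 and Iglc3 share cannot be told apart.

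Library totals ranged from 35101788 to 45401781 counts, and levels are given as CPM, counts per 1000000 of the library total after TMM scaling, on which 3 counts equal 0.0679 to 0.0856 CPM. For 13604 genes the genotypes were compared with the quasi-likelihood F test of edgeR, p-values were adjusted by Benjamini-Hochberg, and genes under 0.05 were called, which held for 0.404% of them. Library 4 of each genotype stood apart from libraries 2 and 3, with 1065 genes called higher and 946 lower in them, so differences are also given within libraries 2 and 3 and within libraries 4. Sex-linked transcripts moved with genotype: Xist was 802 to 886 CPM in knockout and 1442 to 1536 in wild type, and Kdm5d, on the Y chromosome, was 23.3 to 34.9 CPM in knockout and at most 0.0571 in wild type. Every knockout library held both Xist and Y-linked RNA, the pattern of a mix of male and female cells. The wild-type libraries held Xist and almost no Y-linked RNA. Whether a library pooled several mice is not given by the labels. The sex make-up of the cells and the genotype cannot be told apart. Summed markers of B cells were 11609 to 12938 CPM in knockout and 10750 to 12107 in wild type. Those of T cells were 1.97 to 2.94 and 1.91 to 2.58 CPM. Macrophage markers summed to 9.27 to 13.8 and 10.4 to 14.4 CPM, and erythroid markers to 6.92 to 12.5 and 6.09 to 15.1. Dendritic cell markers summed to 4.52 to 5.81 and 3.92 to 4.95 CPM. With these values the label of a B cell holds. Tet2, measured over all its exons, was 50.02 to 64.8 CPM in knockout and 56.8 to 83.2 in wild type and does not check the genotype labels.

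None of the 7 tested constant region genes passed the threshold in the comparison of all 6 libraries. The background is 0.184% of tested genes called higher and 0.221% called lower in knockout. The log2 changes of the 7, knockout minus wild type, were above 0 for all but Ighg1, with a median of 0.93 against −0.01 over all tested genes. The 7 were measured in the same libraries, so their signs are not independent. The largest changes were those of Igha (4.53), high in knockout libraries 2 and 3, and Ighg2c (2.91), high in knockout library 2. Those of the abundant Ighm and Igkc were 0.24 and 0.26. Ighg2b and Ighg3 were the members whose genotypes did not overlap, and 18.5% of all tested genes did not overlap. These genes and Igha had an unadjusted p under 0.05 in edgeR, as did 13.4% of all tested genes. Because the samples are bulk RNA, more cells that express a gene and more RNA per cell cannot be told apart.

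How many members passed differed between settings, and every call made was higher in knockout. With a term for the libraries numbered 4 in edgeR, Ighg2b and Ighg3 passed, where 2.59% of genes were called higher and 1.81% lower (4.4% in all). With libraries 2 and 3 alone, Ighm, Ighg3 and Igkc passed, where 13.6% were called higher and 10.4% lower (24% of 13800). DESeq2 called Ighg3, with 1.45% of genes called higher and 1.12% lower (2.57% in all). So did edgeR without a filter on low counts, with 0.695% of 23019 genes called higher and 0.443% lower (1.14% in all). Without wild-type library 4, which called 6.47% of genes in edgeR (4.53% higher, 1.94% lower), Ighg3 passed. Without knockout library 4, which called 1.05% of genes (0.424% higher, 0.626% lower), Ighg3 and Igha passed. With limma-voom no member passed, and 0.353% of genes were called (0.162% higher, 0.191% lower). Nor did any pass in edgeR with DESeq2 size factors, library size only or scaling without immunoglobulin and T-cell receptor genes. The same held for a filter of CPM of at least 1 in 3 libraries, and without knockout library 2 or 3 or wild-type library 2 or 3. Over all genes, these fits called 9 to 25 higher and 8 to 34 lower. A replicate block, which called 0.625% (0.257% higher, 0.368% lower), put Ighg2b and Ighg3 past the threshold. Whether the library numbers pair the samples was left undecided.

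**Figure D1:**
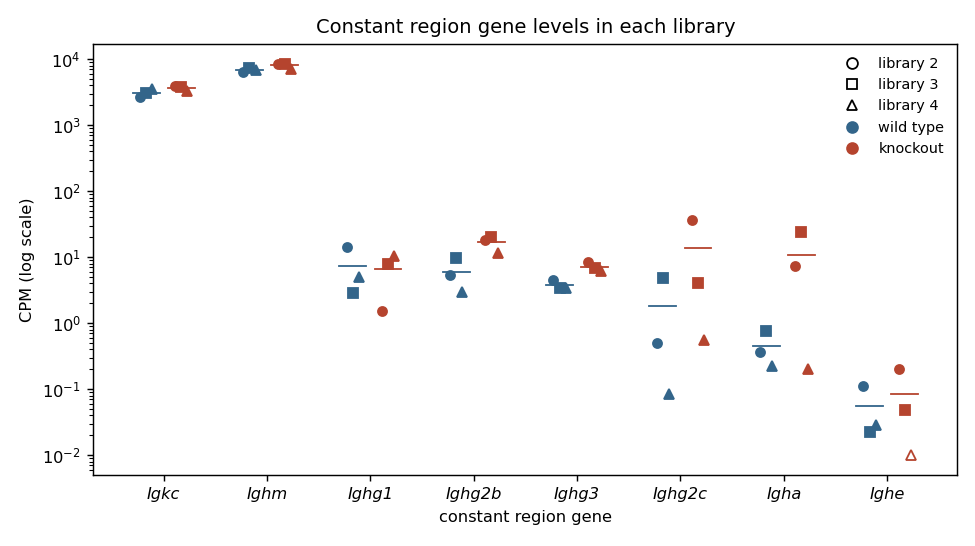
Level of each of the 8 constant region genes in each library (y axis, CPM on a log scale), with wild type in blue and knockout in red, a symbol for each library number and a line at the mean of 3. Ighm and Igkc lie at 2689 CPM or more in every library and the switched isotypes at 36.8 CPM or less, and the open triangle at the foot of the axis marks knockout library 4, which had 0 counts of Ighe.

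Ighm (chr12:113418950-113422730, minus strand, GRCm38; 1486 bases of exons) encodes the mu chain of IgM, the antigen receptor of naive B cells. Its level was 8576, 8360 and 7165 CPM in knockout libraries 2, 3 and 4 and 6382, 7292 and 6749 CPM in wild-type libraries 2, 3 and 4. Knockout libraries 2 and 3 lay above every wild-type library, and knockout library 4 lay between wild-type libraries 4 and 3, so the genotypes overlapped. The means were 8034 ± 760 CPM in knockout against 6808 ± 457.6 in wild type (SD, n = 3 each). The log2 change was 0.24 (SE 0.11, edgeR adjusted p = 0.383). Its 95% interval ran from −0.01 to 0.48, a change of 1.18-fold at its centre. The difference was 0.31 within libraries 2 and 3 and 0.09 within libraries 4, on the log2 scale, and in the fit of libraries 2 and 3 alone Ighm passed the threshold (edgeR adjusted p = 0.0230). With 9.68% as its coefficient of variation between replicates beyond counting error, Ighm was among the steadier genes: 65.8% of tested genes had a larger value.

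The receptor on the cell surface needs Cd79a and Cd79b, the signalling partners of the membrane immunoglobulin. Cd79a was 1776 ± 190 CPM in knockout and 1524 ± 106 in wild type, and Cd79b was 2458 ± 184 and 2111 ± 169 CPM (SD, n = 3 each). Neither passed the threshold: the log2 change was 0.22 for each gene, with edgeR adjusted p = 0.392 for Cd79a and 0.376 for Cd79b. As for Ighm, the difference was larger within libraries 2 and 3, at 0.35 for each gene. Within libraries 4 it was −0.05 for Cd79a and −0.03 for Cd79b, where that of Ighm was 0.09. Both were among the 13.6% of genes called higher in the fit of libraries 2 and 3 alone. The B cell marker Ms4a1 differed by 0.43 within libraries 2 and 3 and by −0.08 within libraries 4.

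Ighg3 (chr12:113359665-113361232, 992 bases of exons) is the first IgG gene downstream of Ighm and encodes the heavy chain of IgG3, a subclass made early in responses to polysaccharides. It was 8.42, 6.95 and 6.16 CPM in knockout libraries 2, 3 and 4 and 4.46, 3.41 and 3.45 CPM in the wild-type libraries of the same numbers. All 3 knockout libraries lay above all 3 wild-type libraries. In counts, these levels stand for 371, 289 and 244 fragments in knockout and 197, 150 and 121 in wild type. The mean was 7.18 ± 1.15 CPM in knockout against 3.77 ± 0.594 in wild type (SD, n = 3 each), which gave a log2 change of 0.93 (SE 0.18), or 1.90-fold. It had the smallest p of the members and missed the threshold (edgeR adjusted p = 0.0928), with a 95% interval of 0.52 to 1.33. The difference was 0.96 within libraries 2 and 3 and 0.83 within libraries 4. Of 16 other settings, 7 put Ighg3 past the threshold, all with a higher level in knockout and log2 changes between 0.79 and 1.06 over the 16. DESeq2 gave an adjusted p of 0.000249, and edgeR with a term for the libraries numbered 4 gave 0.00990.

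Ighg2b (chr12:113306389-113307933, 1010 bases of exons) encodes the heavy chain of IgG2b, a subclass that binds activating Fc receptors and complement. Its level was 18.1, 20.6 and 11.5 CPM in knockout libraries 2, 3 and 4 and 5.32, 9.79 and 2.97 CPM in wild type. Every knockout library lay above every wild-type library, and in both genotypes library 3 was the highest and library 4 the lowest. The means of 16.7 ± 4.68 and 6.03 ± 3.47 CPM (SD, n = 3 each) gave a log2 change of 1.46 (SE 0.40), or 2.76-fold, which did not pass the threshold (edgeR adjusted p = 0.215). Its 95% interval was 0.54 to 2.39. The difference was 1.41 within libraries 2 and 3 and 1.94 within libraries 4, and with a term for the libraries numbered 4 the gene passed the threshold (edgeR adjusted p = 0.0294).

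Ighg1 (chr12:113328976-113330523, 974 bases of exons) encodes the heavy chain of IgG1, the subclass that IL-4 favours in mouse. Its level was 1.52, 7.92 and 10.4 CPM in knockout and 14.3, 2.91 and 4.94 CPM in wild type. The lowest value of the 6 came from knockout library 2 and the highest from wild-type library 2, while both remaining knockout libraries lay above both remaining wild-type libraries. The means were 6.61 ± 4.57 and 7.38 ± 6.08 CPM (SD, n = 3 each), and the log2 change was −0.17 (SE 0.87, edgeR adjusted p = 0.955). The 95% interval of −2.35 to 2.02 holds changes of either sign that are larger than that estimated for Ighg2b. The sign turned without knockout library 2 (log2 change 0.30) and without wild-type library 2 (0.76), and it was −0.88 within libraries 2 and 3 and 1.06 within libraries 4.

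Ighg2c (chr12:113285325-113288930, 1212 bases of exons) encodes the heavy chain of IgG2c, the subclass that interferon gamma favours and that C57BL/6 mice carry where other strains have IgG2a. It was 36.8, 4.07 and 0.556 CPM in knockout and 0.498, 4.82 and 0.0856 CPM in wild type. Knockout library 2 alone lay above all wild-type libraries. The highest knockout library exceeded the lowest by 66.3-fold, and the highest wild-type library the lowest by 56.3-fold, the latter on counts of 212 and 3. The means of 13.8 ± 20.01 and 1.80 ± 2.62 CPM (SD, n = 3 each) gave a log2 change of 2.91 (SE 1.84, edgeR adjusted p = 0.553), which was 0.33 without knockout library 2 and 5.46 without wild-type library 3. No tested gene had a larger coefficient of variation between replicates than Ighg2c, at 141.5%, where the median over all tested genes was 11.7%.

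Igha (chr12:113258768-113260236, 1034 bases of exons), the last constant gene of the locus, encodes the heavy chain of IgA, the antibody of mucosal secretions. Its level was 7.42, 24.2 and 0.202 CPM in knockout libraries 2, 3 and 4 and 0.362, 0.750 and 0.228 CPM in wild type. Knockout libraries 2 and 3 lay above every wild-type library. Knockout library 4 lay below all of them, at 8 counts, but wild-type library 4 had 8 counts as well in a smaller library. The means were 10.6 ± 12.3 and 0.447 ± 0.271 CPM (SD, n = 3 each). The log2 change of 4.53 (SE 1.63) did not pass the threshold (edgeR adjusted p = 0.353), and its 95% interval ran from 0.32 to 8.74. The difference was 4.55 within libraries 2 and 3 and −0.14 within libraries 4. Without knockout library 4, where 0.424% of genes were called higher, Igha passed the threshold (edgeR adjusted p = 0.00861), and without knockout library 3 its log2 change was 3.06. Its coefficient of variation between replicates was 110.5%, and 4 tested genes had a larger one.

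Ighe (chr12:113271180-113273246, 1359 bases of exons) encodes the heavy chain of IgE. It had 9, 2 and 0 counts in knockout libraries 2, 3 and 4 and 5, 1 and 1 in wild type. With 11 counts in knockout and 7 in wild type it failed the filter on low counts. Without that filter its log2 change was 0.60 (SE 0.94, edgeR adjusted p = 0.841).

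**Figure D2:**
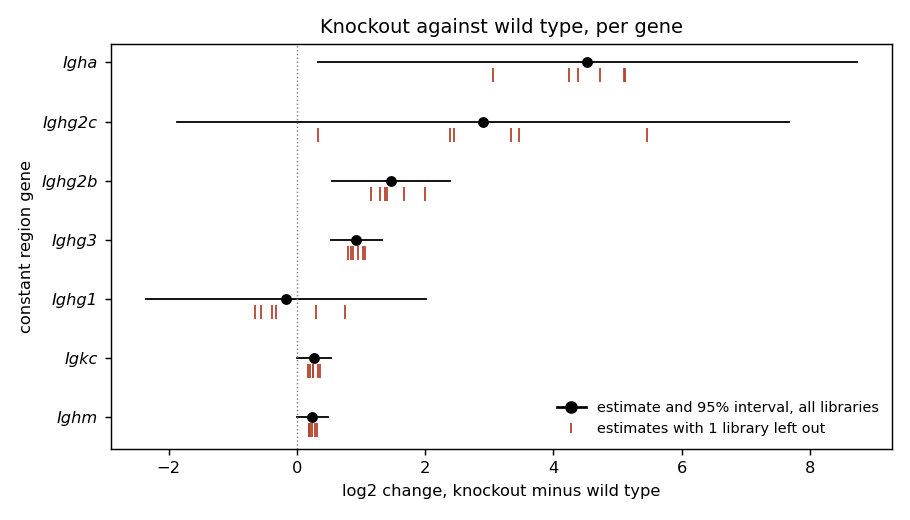
Change of each tested member between genotypes (x axis, log2, knockout minus wild type): points and bars are edgeR estimates with 95% intervals from all libraries, and red ticks are estimates with 1 library left out. The intervals of Ighm, Igkc and Ighg3 are the narrowest, those of Igha and Ighg2c the widest, and the ticks of Ighg1 fall on both sides of 0.

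Igkc (chr6:70726435-70726757, plus strand, 323 bases in 1 exon) encodes the constant region of the kappa light chain. Its level was 3963, 3774 and 3332 CPM in knockout and 2689, 3070 and 3476 CPM in wild type. Knockout libraries 2 and 3 lay above every wild-type library, and within libraries 4 the knockout library was the lower, so the genotypes overlapped. The means were 3689 ± 324 and 3079 ± 394 CPM (SD, n = 3 each), which gave a log2 change of 0.26 (SE 0.12, edgeR adjusted p = 0.378) with a 95% interval of −0.0038 to 0.53. The difference was 0.43 within libraries 2 and 3 and −0.06 within libraries 4, and Igkc passed the threshold in the fit of libraries 2 and 3 alone (edgeR adjusted p = 0.00226). For the lambda chain, Iglc2 (chr16:19198401-19200351) was 664, 613 and 610 CPM in knockout and 625, 612 and 686 in wild type, with a log2 change of −0.03 (SE 0.08, edgeR adjusted p = 0.908).

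The ratio of Iglc2 to Igkc counts within a library does not depend on library size, and it was added after the values had been seen. It was 0.168, 0.162 and 0.183 in knockout and 0.233, 0.199 and 0.197 in wild type. All knockout libraries lay below all wild-type libraries. The means were 0.171 ± 0.0107 and 0.210 ± 0.0198 (SD, n = 3 each), a log2 difference of −0.29, with p = 0.1 in the exact two-sided permutation test, the smallest p that 3 against 3 libraries allow. The ratio of Igkc to the summed counts of the heavy chain genes analysed, without Ighd, was 0.458, 0.448 and 0.463 in knockout. In wild type it was 0.420, 0.420 and 0.514. Wild-type library 4 held the highest ratio of the 6, and the genotypes overlapped (log2 difference 0.02, exact permutation p = 1, two-sided, n = 3 each). The 8 genes together took 1.22%, 1.21% and 1.04% of the library total in knockout and 0.941%, 1.05% and 1.02% in wild type, a log2 difference of 0.20 that was within the overlap of the genotypes (exact permutation p = 0.2, two-sided, n = 3 each).

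**Figure D3:**
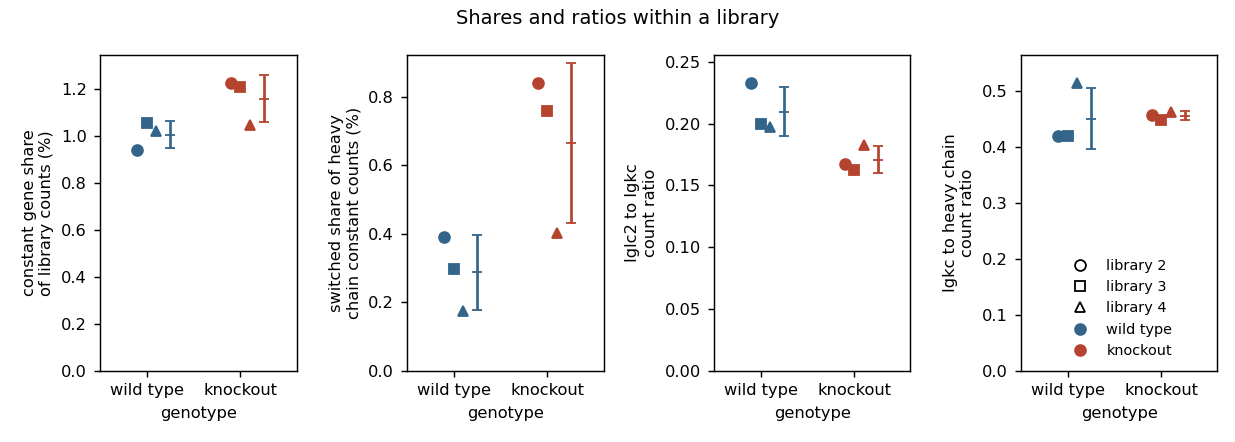
Shares and ratios of counts within each library (y axes from 0, in percent or as a ratio) for wild type in blue and knockout in red, with the mean and SD of 3 libraries beside the points. The switched share lies higher in all knockout than in all wild-type libraries and the Iglc2 to Igkc ratio lower, while the other 2 quantities overlap.

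The switched share is the counts of the IgG, IgA and IgE genes over the summed counts of these genes and Ighm. It measures isotypes against IgM within a library, and Ighd is not in the total. It was 0.839% (95% Wilson interval 0.810% to 0.868%), 0.757% (0.729% to 0.786%) and 0.401% (0.378% to 0.425%) in knockout libraries 2, 3 and 4. In wild type it was 0.391% (0.369% to 0.415%), 0.297% (0.279% to 0.316%) and 0.173% (0.157% to 0.191%). Knockout libraries 2 and 3 stood well above the rest, and knockout library 4 lay above wild-type library 2 by less than the width of their counting intervals. The means were 0.665% ± 0.233 and 0.287% ± 0.109 (SD, n = 3 each), a 2.33-fold difference. The exact permutation test of the log2 shares gave p = 0.1 (two-sided), the smallest p possible here. Without Igha and Ighg2c, left out after their spread had been seen, the shares were 0.380% ± 0.0477 and 0.256% ± 0.109 (SD, n = 3 each) and the genotypes overlapped (exact permutation p = 0.2, two-sided). The intervals cover counting error only.

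The isotype that led the switched counts differed from library to library within each genotype. Ighg2c led in knockout library 2 with 1623 of 3196 switched counts, Igha in knockout library 3 with 1007 of 2650, and Ighg2b in knockout library 4 with 456 of 1141. In wild type, Ighg1 led in library 2 with 632 of 1107 and in library 4 with 173 of 410, and Ighg2b led in library 3 with 431 of 955. No isotype led in all libraries of a genotype, and Ighg2b was the first or the second isotype in 5 of the 6 libraries, all but wild-type library 4. Within both genotypes library 4 had the lowest level of Ighg2b, Ighg2c and Igha.

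**Figure D4:**
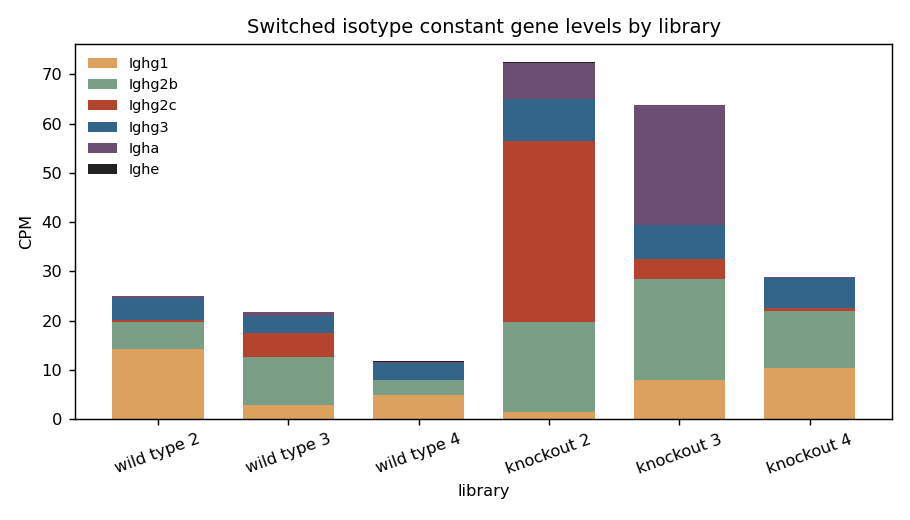
Stacked levels of the 6 switched isotype genes in each library (y axis, CPM). The tall bars of knockout libraries 2 and 3 hold 36.8 CPM of Ighg2c and 24.2 CPM of Igha, while Ighg3 takes a band of like height in all 3 libraries of a genotype.

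Levels of different genes were compared per kilobase of the counted exons. On that scale Igkc was the highest member, at 11422 ± 1003 CPM per kilobase in knockout and 9531 ± 1219 in wild type (SD, n = 3 each). Ighm followed at 5406 ± 512 and 4581 ± 308 CPM per kilobase. In knockout the order went on with Ighg2b at 16.6 ± 4.63 CPM per kilobase, Ighg2c at 11.4 ± 16.5, Igha at 10.3 ± 11.9, Ighg3 at 7.24 ± 1.15 and Ighg1 at 6.78 ± 4.70. In wild type it was Ighg1 at 7.58 ± 6.24 CPM per kilobase, Ighg2b at 5.97 ± 3.43, Ighg3 at 3.80 ± 0.599, Ighg2c at 1.49 ± 2.16 and Igha at 0.432 ± 0.262. The first place of Ighg1 there came from wild-type library 2, at 14.7 CPM per kilobase against 2.99 and 5.07 in libraries 3 and 4. Igkc and Ighm each stood clear of the next gene in every library, whereas neighbours among the switched isotypes overlapped in their libraries in both genotypes. In counts, Ighm exceeded Igkc by 2.18-fold in knockout and 2.23-fold in wild type, so the order of these genes depends on dividing by exon length. Ighm exceeded Ighg2b in counts by 478-fold in knockout and 1090-fold in wild type.

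The counted exons do not cover all forms of these RNAs alike. The exons of Ighg1, Ighg2b, Ighg3 and Igha in the table held 90.5% to 94.0% of the bases of the shorter reference transcripts, which encode the secreted antibody. Of the longer ones, which add the membrane exons, they held 38.3% to 40.8%. The exons of Ighm and Ighg2c included membrane exons, with 83.7% and 99.8% of the bases of the longer transcripts. The exon counted for Igkc held 60.7% of the bases of its reference transcript. Secreted and membrane forms, and germline and switched transcripts, cannot be told apart in counts per gene, so a level of an IgG gene does not give a number of switched cells. The library kit keeps the strand while the counting used none, so antisense RNA over these exons would be counted as well.

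Genes of the antibody pathways were taken from 9 lists with the results of these data known in part, and none of their tested members was called by edgeR in the comparison of all 6 libraries, while DESeq2 called 1 higher and 1 lower and limma-voom 0. Of all tested genes, 13.4% had an unadjusted p under 0.05 in edgeR, and the counts given for each list are to be read against that share. Among 14 genes that process the IgM and IgD transcript, 13 were tested, 0 had an unadjusted p under 0.05 and the median log2 change was 0.04. Ell2, an elongation factor that favours the secreted form of the heavy chain, was 59.7 ± 9.61 CPM in knockout and 50.1 ± 6.46 in wild type (log2 change 0.25, edgeR adjusted p = 0.442), and its partner Eaf2 was 3.51 ± 0.286 and 2.77 ± 0.511 CPM (0.34, edgeR adjusted p = 0.467; SD, n = 3 each). Zfp318, which in mouse is needed for IgD expression, was 543 ± 22.6 and 560 ± 59.2 CPM, with a log2 change of −0.04 (edgeR adjusted p = 0.864). It is named here, after its values were seen, for its role.

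All 32 genes of the class switch list were tested, 2 had an unadjusted p under 0.05 and the median log2 change was 0.02. Rpa1, a subunit of the complex that coats single-stranded DNA, had a log2 change of 0.20 (edgeR adjusted p = 0.319), and Apex1, an endonuclease of base excision repair, 0.28 (edgeR adjusted p = 0.359).

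Of 33 signalling genes that direct switching to single isotypes, 31 were tested, 6 had an unadjusted p under 0.05 and 23 had a log2 change above 0, with a median of 0.07. Tbx21, which encodes T-bet, the factor that directs switching to IgG2a and IgG2c, was 9.06, 4.98 and 5.03 CPM in knockout and 3.69, 4.23 and 2.88 CPM in wild type. All knockout libraries lay above all wild-type libraries, where 18.5% of all tested genes did not overlap in either direction. Knockout library 2, where Ighg2c led, was the highest of the 6. In other libraries Tbx21 and Ighg2c did not rank alike: Ighg2c was 0.556 CPM in knockout library 4 and 4.82 in wild-type library 3. A link between them was not tested. The log2 change of Tbx21 was 0.82 (SE 0.26) and did not pass the threshold (edgeR adjusted p = 0.254).

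Of 23 antibody secretion genes 21 were tested, 5 had an unadjusted p under 0.05 and the median log2 change was 0.05. Txndc5, a protein disulfide isomerase of the endoplasmic reticulum, was 226 ± 18.7 CPM in knockout and 273 ± 13.3 in wild type (log2 change −0.27, edgeR adjusted p = 0.233). Pou2af1, a coactivator at immunoglobulin promoters, was 920 ± 44.1 and 757 ± 64.8 CPM (0.28, edgeR adjusted p = 0.249; SD, n = 3 each). The J chain gene, listed under its older symbol Igj, encodes the peptide that links IgM and IgA into polymers and was singled out after its values were seen. It was 32.8, 21.2 and 11.1 CPM in knockout and 7.95, 13.3 and 4.91 CPM in wild type. Knockout libraries 2 and 3 were the highest and library 4 the lowest within each genotype, and the genotypes overlapped (log2 change 1.31, SE 0.48, edgeR adjusted p = 0.325).

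Markers of plasma cells, the cells that secrete antibody, were given beside these values. Of 6 tested markers other than the J chain, 1 had a log2 change above 0 and the median was −0.16. Their summed level was 581 to 652 CPM in knockout and 561 to 680 in wild type. The J chain gene, a marker of the same list with a log2 change of 1.31, is not in these values. Irf4 (256 CPM in knockout, 297 in wild type), Xbp1 (124 and 125) and Mzb1 made up most of the sum. Prdm1, the transcription factor of plasma cells, was 1.89 ± 0.233 CPM in knockout and 2.18 ± 0.513 in wild type, and Sdc1, a surface proteoglycan, was 8.56 ± 0.632 and 9.31 ± 0.821 CPM (SD, n = 3 each). Tnfrsf17, a receptor of long-lived plasma cells, had 1, 2 and 1 counts in knockout and 0, 2 and 0 in wild type, under the floor of 3 counts in every library. Mzb1, a chaperone of antibody assembly, was 198 ± 7.17 and 156 ± 37.1 CPM (log2 change 0.34, edgeR adjusted p = 0.350). The part of plasma cells in the levels of the switched isotypes was not tested.

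**Figure D5:**
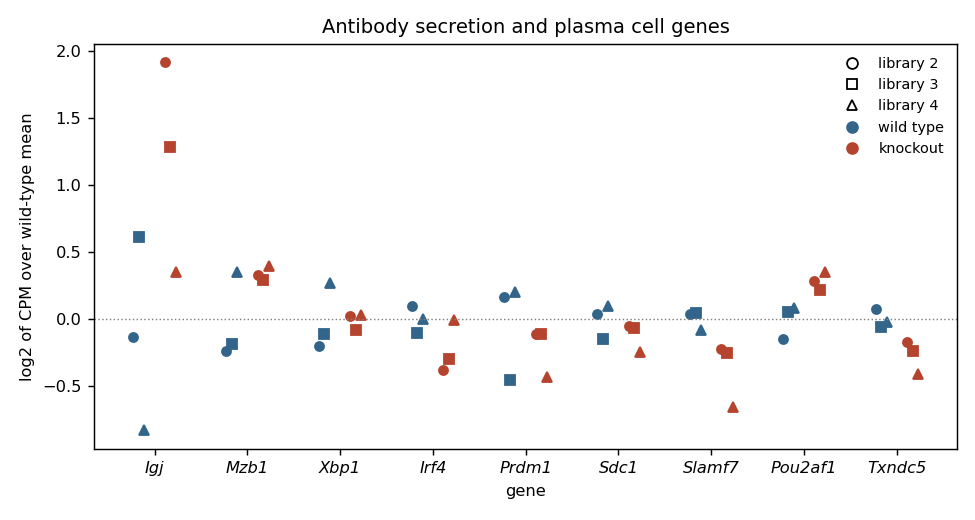
Level of plasma cell and antibody secretion genes in each library, as log2 of CPM over the wild-type mean (y axis), with wild type in blue and knockout in red. Igj spreads the most, from 4.91 to 32.8 CPM, while the knockout points of Pou2af1 all lie above and those of Txndc5 and Slamf7 all below the wild-type points.

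Of 10 immunoglobulin receptor genes 9 were tested, and 5 had an unadjusted p under 0.05, beside 13.4% of all tested genes. A log2 change above 0 was seen for 7, with a median of 0.19. Pigr, the receptor that carries polymeric IgA and IgM across epithelia, was 4.47, 3.66 and 4.70 CPM in knockout and 11.4, 7.66 and 6.82 CPM in wild type. All knockout libraries lay below all wild-type libraries. Its log2 change of −1.01 (SE 0.21) missed the threshold (edgeR adjusted p = 0.114), and it was called lower by DESeq2 (adjusted p = 0.000542). Fcrla, an intracellular Fc receptor-like protein of B cells, was 569 ± 35.6 and 469 ± 33.9 CPM (SD, n = 3 each), with a log2 change of 0.28 (edgeR adjusted p = 0.238).

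Of 14 genes on either side of the heavy chain locus, 9 lie beyond its 3′ end, past Igha, and 5 on its 5′ side, upstream of Ighm. Of these 14 genes 13 were tested, 0 had an unadjusted p under 0.05, and the median log2 change was 0.05. The smallest p-values were those of Brf1, a subunit of a general factor of RNA polymerase III, on the 3′ side (log2 change −0.19, edgeR adjusted p = 0.424), and of the zinc finger gene Zfp386, on the 5′ side (0.12, edgeR adjusted p = 0.544). Of 7 genes of the surrogate light chain and of V(D)J recombination, which are used by B cell precursors, only Vpreb3 passed the filter (98.8 ± 8.71 CPM in knockout, 85.9 ± 14.2 in wild type; SD, n = 3 each; edgeR adjusted p = 0.498). Vpreb2, Igll1 and Rag2 had 0 counts in all 6 libraries.

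The genes whose levels over the 6 libraries were most like those of each member were found by the root mean square difference of log2 CPM, each centred on its own mean. Sec22a and Tmed10 were nearest to Ighm, with differences of 0.0240 and 0.0260 where Ighm itself had an SD of 0.169. Arhgdib and Smim8 were nearest to Igkc, at 0.0178 and 0.0224 against an SD of 0.204. For Ighg3 they were Havcr1 and Plxna1 (0.109 and 0.132, SD 0.540), and for Ighg2b Prkcq and Hist1h1a (0.212 and 0.317, SD 1.06). The nearest genes of Ighg1 (Pih1d2 and Prss12, 0.642 and 0.705, SD 1.20), of Ighg2c (Iigp1 and Serpina3f, 1.19 and 1.65, SD 2.90) and of Igha (Apol7e and Tmem100, both 1.87, SD 2.76) left differences of more than 0.6. These are the 2 smallest differences per member over 6 libraries among the tested genes, leaving out members, receptor gene segments, pseudogenes and clone names.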

How the data were processed

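The authors deposited raw counts, which are unnormalized numbers of fragments for each gene name, and 6 libraries were read. A further 6 count columns in the table belong to no sample analysed here and were not used. Per the file headers, featureCounts 1.5.1 counted paired fragments over GENCODE vM3 exons without a strand option. Per the submitters' processing notes, reads were aligned with STAR 2.3.0e to GRCm38.p3. Per the labels' protocols, RNA came from a Trizol and RNeasy extraction and libraries from a stranded mRNA kit. The deposited exon lengths, in bases, served for levels per kilobase and were read from the same table.

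Genes passing edgeR's filterByExpr (minimum count 10) were fitted with glmQLFit (robust, TMM, no covariate; edgeR 4.0.16, limma 3.58.1, R 4.3.3). Shares and ratios were tested by an exact permutation over samples. Differences within libraries 2 and 3 and within libraries 4 used log2(CPM + 0.05). DESeq2 1.42.0, limma-voom, other scalings and filters, a block, a term for the libraries numbered 4 and leaving out libraries were alternatives. The fit was tested on simulated counts, drawn with the spread estimated from these data and without a difference of the libraries numbered 4. That test therefore does not cover such a difference. Precision follows the library totals of 35101788 to 45401781 counts.

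The members and lists were chosen with earlier results of these data known. Named genes are all members, the 2 genes of each list with the smallest p (up to 4 if called), the receptor partners, the 2 most similar genes per member and defining markers of B and plasma cells; any others were chosen after their values were seen. Planned ratios with Ighd and Iglc1 were not run, since neither gene was analysed here. A named gene may be left unreported here.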

Additional observations from a re-analysis of the deposited data

How the results depend on the processing

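The number of called members was 0 in either direction in the comparison of all libraries, and 0 were lower in every alternative run. Called higher were 1 without a filter on low counts, 1 with DESeq2, 2 with a term for the libraries numbered 4, 3 with libraries 2 and 3 alone, and 0 to 2 when a library was left out. With limma-voom, the other scalings and the CPM filter the number was 0. Over all genes, 25 were higher and 30 lower in the fit as reported; the counts were 160 and 102 without a filter, 197 and 152 with DESeq2, 353 and 246 with a term for the libraries numbered 4, 1871 and 1436 with libraries 2 and 3 alone, and 9 to 630 and 8 to 270 with a library left out. Leaving out wild-type library 4 gave the highest of these, and leaving out knockout library 4 gave 59 and 87. Of the pathway lists, 0 genes were called in either direction as reported, 0 higher and 1 lower without a filter, 1 and 1 with DESeq2, 1 and 3 with the term for the libraries numbered 4, 24 and 9 with libraries 2 and 3 alone, and 0 to 4 and 0 to 1 with a library left out. With that term the genes were Pou2af1 (log2 change 0.28, edgeR adjusted p = 0.0454), Pigr (−1.004, 0.0286), Slamf7 (−0.37, 0.0349) and Txndc5 (−0.27, 0.0381). The cause of these differences was not tested.

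The log2 change of Ighg3 was 0.79 to 1.06 and that of Ighg2b 1.149 to 1.99 over the 16 alternatives. Ighg1 turned to 0.30 without knockout library 2 and 0.76 without wild-type library 2, in a range of −0.66 to 0.76 with a library left out. The log2 difference of the switched share was 0.90 to 1.55 with a library left out, that of the Iglc2 to Igkc ratio −0.34 to −0.22, and that of the members' share of the total 0.16 to 0.27. The log2 difference of the ratio of light to heavy chain counts was 0.02 as reported and −0.03 to 0.12 with a library left out. Its sign turned in some settings: it was −0.0256 without wild-type library 2, −0.0255 without wild-type library 3 and −0.0237 with Iglc2 among the light chains.

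Whether the replicate numbers pair the samples was left undecided: deviations of same-numbered libraries correlated at 0.0857, 0.220 and 0.394. Knockout library 2 correlated best with wild-type library 3 (0.239). Knockout libraries 3 and 4 each correlated best with the wild-type library of their own number. A replicate block gave 35 genes higher and 50 lower, and 2 members higher, Ighg2b (edgeR adjusted p = 0.00678) and Ighg3 (0.0216). Depth limits Ighe, with 18 counts in all, and Igha and Ighg2c in their lowest libraries. Ratios with Ighd and Iglc1 were not run.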
